A study of Rattus norvegicus with 40 samples.

Results

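Oligodendrocyte precursor genes were followed in bulk RNA-seq of rat brain (Rattus norvegicus), through Pdgfra, Gpr17, Cspg4, Olig1, Olig2 and Lhfpl3. The genes were chosen by name as markers of this cell type, not ranked by a value measured here. Earlier results of these data were known when the genes were chosen. The genes were looked up by name in the hippocampus table and joined by identifier to the tables of the other regions. Of the 6 listed genes 5 were found and are described. No row bears the name Lhfpl3 in the tables used here, so that gene was not analysed here. They are 5 of 25958 identifiers in the tables, of which 20814 are shared by all 4 regions. All 5 genes are among those shared, and they passed the filter on low counts in every region.

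Total RNA came from the hippocampus, amygdala, anterior cortex and cerebellum of blast-exposed and sham-exposed rats, 12 months after exposure. There were 40 libraries, 5 of blast and 5 of sham brain for every region. The labels name no strain, sex or age and no strength or number of blasts. The library titles carry numbers that recur over the regions, 5 in blast and 5 in sham libraries. Nothing in the labels ties a number to an animal, so the p-values measure only the spread between these samples. A sham column of the amygdala table bears another number than the matching title, and that library is called the unnumbered one. Library totals ran from 11268097 to 37128383 counts. Of the anterior cortex libraries, blast 8 and sham 11, 13 and 15 stood apart, with 16577 to 17845 genes detected, against 18744 to 20748 in the other 6. The labels used here do not say what sets these 4 apart, and the main anterior cortex results are also given without them.

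Oligodendrocyte precursor cells are glia that keep dividing in the adult brain and give rise to the oligodendrocytes that wrap axons in myelin. Platelet-derived growth factor acts on them through the receptor encoded by Pdgfra, which keeps precursors dividing and is lost as they mature. The transcription factors Olig1 and Olig2 are made in precursors and in mature oligodendrocytes alike, whereas Gpr17 is made for a short time in cells that are committed to becoming oligodendrocytes. Outside this lineage, Pdgfra is also made in fibroblasts of the meninges and vessels, and Cspg4 in pericytes, the contractile cells on capillaries.

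The 5 genes lie on 4 chromosomes, in the coordinates of the deposited tables, for which the labels and headers used here name no genome build. Pdgfra (ENSRNOG00000002244) lies at chr14:35527927-35581031 on the minus strand. Gpr17 (ENSRNOG00000025745) lies at chr18:24734330-24735349 on the minus strand. Cspg4 (ENSRNOG00000017208) lies at chr8:61532465-61567510 on the plus strand. Olig2 (ENSRNOG00000028658) at chr11:31389514-31392890 and Olig1 (ENSRNOG00000028648) at chr11:31428358-31430517 are neighbours on the plus strand, 35467 bases apart. All are protein-coding genes. Gpr17 spans 1020 bases in the deposited tables, all of them in its gene model, against a span of 6922 bases in the RefSeq annotation of assembly GRCr8. It lies wholly within Lims2, a gene of the opposite strand with up to 683 counts in a library. The labels do not state whether the counting used strand, so reads of Gpr17 and Lims2 cannot be told apart with certainty.

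The start regions of Pdgfra and Olig2 are shown because Olig2 had the smallest differences of the cerebellum from the other regions and Pdgfra among the larger ones. OLIG1 and OLIG2 are basic helix-loop-helix proteins, a class that binds the E-box, CANNTG, which reads alike on both strands. RefSeq start regions of assembly GRCr8, 250 bases before to 50 after the start, were matched for 4 of the 5 genes, and capitals mark each E-box. The first sequence is chr14:33408467-33408766 on the minus strand and the second is chr11:43961335-43961634 on the plus strand.
Pdgfra: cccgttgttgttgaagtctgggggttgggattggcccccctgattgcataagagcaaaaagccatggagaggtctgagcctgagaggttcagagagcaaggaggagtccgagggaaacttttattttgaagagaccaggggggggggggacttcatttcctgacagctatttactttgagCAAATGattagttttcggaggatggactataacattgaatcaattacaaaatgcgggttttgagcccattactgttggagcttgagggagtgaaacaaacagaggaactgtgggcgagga
Olig2: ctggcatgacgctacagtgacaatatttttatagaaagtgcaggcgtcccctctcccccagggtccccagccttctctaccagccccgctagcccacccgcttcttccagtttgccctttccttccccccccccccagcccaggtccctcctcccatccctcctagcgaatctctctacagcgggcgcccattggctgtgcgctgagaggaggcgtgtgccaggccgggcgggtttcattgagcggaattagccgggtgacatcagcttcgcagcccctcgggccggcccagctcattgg
Pdgfra held 1 E-box in this window, and Olig2, Cspg4 and Gpr17 held 0. Of 33469 rat start regions of the same length 72.1% held at least 1. The GC content was 48.0% for Pdgfra, 63.3% for Olig2, 62.0% for Cspg4 and 56.0% for Gpr17, against a median of 51.7% over all start regions. A match of letters is a description of the sequence and not a binding site.

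In sham brain all 5 genes were lowest in the cerebellum. Log2 fold changes of the cerebellum against the other regions were larger for Pdgfra, Gpr17 and Cspg4 than for Olig1 and Olig2. With all libraries the same contrast held for the hippocampus against the amygdala and against the anterior cortex. For that last pair the median of the 5 genes was -0.91, and -0.74 without anterior cortex sham 11, 13 and 15. No test compared the genes with each other, and their order in that pair without these libraries is not described here. The cerebellum was below the hippocampus, the amygdala and the anterior cortex for each of the 5 genes. The hippocampus was below the anterior cortex for all 5 genes and below the amygdala for 3 of them. Of these 8 calls 2, Gpr17 against the amygdala (adjusted p = 0.128) and Olig1 against the anterior cortex (adjusted p = 0.0818), were lost in edgeR with the title number as a replicate block. When only the regions compared were fitted, 3 of the 5 calls against the anterior cortex and 2 of the 3 against the amygdala were made. None was called between the amygdala and the anterior cortex. Levels are given as CPM, the count of a gene relative to the library total, scaled by TMM over the 40 libraries, and tests are edgeR quasi-likelihood tests with Benjamini-Hochberg adjustment over 15695 genes, called at an adjusted p under 0.05. The regions have a table each, so a region cannot be told apart from any batch of its libraries. These are bulk samples, in which fewer cells of a type and less RNA per cell cannot be told apart.

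Pdgfra encodes the receptor for platelet-derived growth factor A. Its level in sham libraries 11, 13, 14, 15 and 33 was 25.1, 30.0, 33.5, 23.8 and 36.1 CPM in the cerebellum, and 84.8, 70.3, 65.9, 80.1 and 68.4 CPM in the hippocampus. In the amygdala it was 121, 145, 119 and 155 CPM in sham libraries 11, 14, 15 and 33 and 142 CPM in the unnumbered one. In the anterior cortex it was 158, 143, 103, 153 and 142 CPM in sham libraries 11, 13, 14, 15 and 33. The 5 cerebellar libraries were below all others and the 5 hippocampal ones were below every amygdala and anterior cortex library, whereas amygdala and anterior cortex overlapped. Sham cerebellum was lower than sham hippocampus by a log2 fold change of -1.31 ± 0.13 (SE, adjusted p = 2.61e-08). Against the amygdala it was -2.20 ± 0.13 (adjusted p = 8.02e-12), and against the anterior cortex -2.22 ± 0.13 (adjusted p = 7.75e-12). Sham hippocampus was lower than sham amygdala by -0.89 ± 0.13 and lower than sham anterior cortex by -0.91 ± 0.13. The difference of amygdala from anterior cortex was -0.02 (95% interval -0.28 to 0.24, adjusted p = 0.922), and 0.16 without anterior cortex sham 11, 13 and 15.

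Gpr17 encodes a receptor of the purinergic and leukotriene family that holds committed cells back from maturing. It had 5.19, 5.80, 7.70, 3.89 and 6.71 CPM in sham cerebellum 11, 13, 14, 15 and 33. In sham hippocampus the same numbers had 13.7, 14.3, 7.04, 18.3 and 15.5 CPM, and library 14 overlapped the cerebellum. It averaged 21.8 ± 5.5 CPM in sham amygdala and 28.9 ± 6.3 CPM in sham anterior cortex (SD, n = 5 each), where every library was above every cerebellar one. The log2 fold change of sham cerebellum was -1.22 ± 0.24 against sham hippocampus, -1.90 ± 0.24 against sham amygdala and -2.29 ± 0.245 against sham anterior cortex. Sham hippocampus was lower than sham anterior cortex by -1.06 ± 0.23 (adjusted p = 0.0011). Its difference from sham amygdala, -0.68 ± 0.23, was near the threshold (adjusted p = 0.043). That call was lost when 1 library was left out in 12 of 20 cases (adjusted p up to 0.119). These were hippocampal 11, 13, 14 and 33, amygdala 14, 33 and the unnumbered one, anterior cortex 13, and cerebellar 11, 13, 14 and 33. The gene around it, Lims2, moved between regions in a like way, with log2 fold changes of -1.13, -1.74 and -1.73 in sham cerebellum against sham hippocampus, amygdala and anterior cortex. The part of Lims2 reads in the Gpr17 values was not tested.

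Cspg4 encodes a chondroitin sulfate proteoglycan of the precursor surface. It had 15.6, 12.2, 13.1, 13.02 and 12.4 CPM in sham cerebellum 11, 13, 14, 15 and 33, and 31.4, 29.7, 23.7, 35.7 and 29.9 CPM in the same numbers of sham hippocampus. Sham amygdala had 44.9 to 66.5 CPM with a median of 58.5. Sham anterior cortex spread most, with 93.4, 67.4, 38.5, 85.7 and 61.4 CPM in libraries 11, 13, 14, 15 and 33. The cerebellum lay below the hippocampus and the hippocampus below the other regions with no overlap, and amygdala and anterior cortex overlapped. The log2 fold change of sham cerebellum was -1.17 ± 0.18 against sham hippocampus, -2.10 ± 0.18 against sham amygdala and -2.37 ± 0.18 against sham anterior cortex. Sham hippocampus was lower than sham amygdala by -0.92 ± 0.175 (adjusted p = 0.000521) and lower than sham anterior cortex by -1.20 ± 0.18 (adjusted p = 1.84e-05). The difference of amygdala from anterior cortex was -0.27 (95% interval -0.63 to 0.09), and without anterior cortex sham 11, 13 and 15 it had the other sign, at 0.19.

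Olig1, a transcription factor of the lineage, had 62.4 to 80.6 CPM in sham cerebellum, 114 to 183 CPM in sham hippocampus, 152 to 171 CPM in sham amygdala and 145 to 262 CPM in sham anterior cortex. Only the cerebellum was apart from the other regions. Its log2 fold change in sham cerebellum was -1.01 ± 0.14 against sham hippocampus, -1.08 ± 0.14 against sham amygdala and -1.36 ± 0.14 against sham anterior cortex. Sham hippocampus differed from sham amygdala by -0.07 (95% interval -0.35 to 0.21, adjusted p = 0.788). Sham hippocampus was lower than sham anterior cortex by -0.35 ± 0.14, near the threshold (adjusted p = 0.042). That call was lost when 1 library was left out in 13 of 20 cases, most of all without anterior cortex 33, hippocampal 11 or hippocampal 33 (adjusted p of 0.151, 0.118 and 0.105). The others were anterior cortex 11, amygdala 11, 14, 15 and the unnumbered one, and cerebellar 11, 13, 14, 15 and 33.

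Olig2, which specifies the lineage, had 19.7 to 22.8 CPM in sham cerebellum, 22.01 to 40.6 CPM in sham hippocampus, 31.8 to 39.1 CPM in sham amygdala and 31.6 to 63.2 CPM in sham anterior cortex. The lowest hippocampal library, 33, lay within the range of the cerebellum, and the amygdala and anterior cortex libraries lay above it. Its log2 fold changes were the smallest of the 5 genes in each comparison of the cerebellum, at -0.62 ± 0.17 against sham hippocampus, -0.75 ± 0.17 against sham amygdala and -1.11 ± 0.17 against sham anterior cortex. Sham hippocampus was lower than sham anterior cortex by -0.49 ± 0.16 (adjusted p = 0.0208). Without hippocampal 11, hippocampal 33 or anterior cortex 33 the adjusted p was 0.0564, 0.0608 or 0.0703. The difference of sham hippocampus from sham amygdala was -0.13 (95% interval -0.47 to 0.21).

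**Figure D1:**
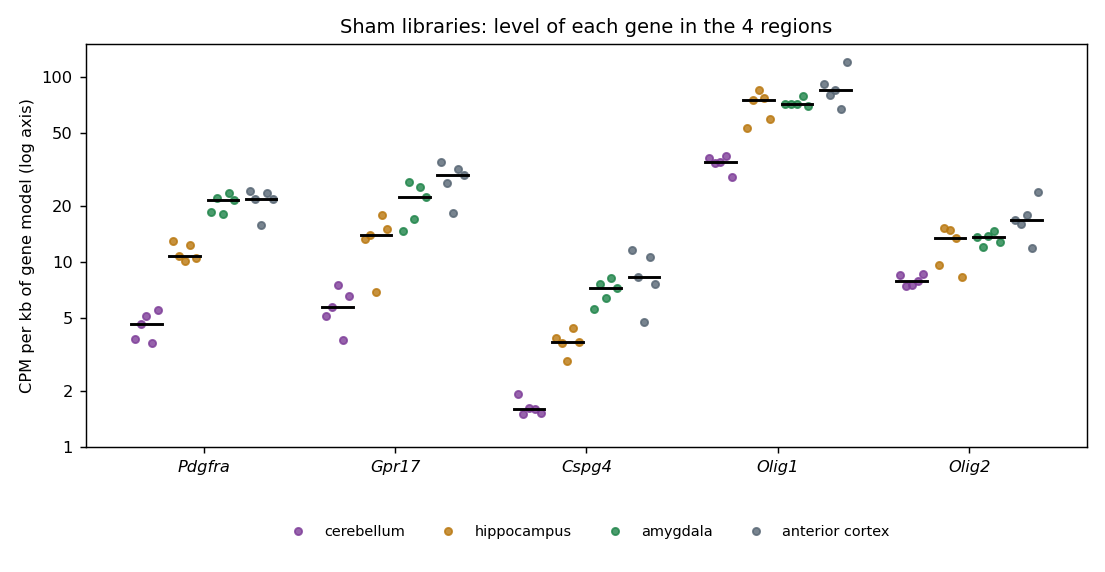
Level of each gene in the 20 sham libraries, as CPM per kb of gene model on a log axis, by region, with a point for each library and a black line at the median of 5. The cerebellum is lowest for all 5 genes, and Pdgfra, Gpr17 and Cspg4 span a wider range over the regions than Olig1 and Olig2.

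Many genes differ between brain regions, so these counts were read against the share of all genes called. In sham cerebellum that share, in either direction, was 53.3% against sham hippocampus, 58.5% against sham amygdala and 60.2% against sham anterior cortex. Called lower were 4374, 4827 and 4776 of 15695 genes, and all 5 precursor genes in each. The share in either direction was 20.7% for sham hippocampus against sham amygdala, with 1807 genes called lower, 3 of the 5 among them. Against sham anterior cortex it was 43.6%, with 3398 genes called lower, all 5 among them. For sham amygdala against sham anterior cortex it was 21.8%, where none of the 5 was called by edgeR or by DESeq2 and only Olig2 had an unadjusted p under 0.05. The median log2 fold change over all genes was -0.02 in sham cerebellum against sham hippocampus and 0.02 against sham anterior cortex, whereas the median over the 5 genes was -1.17 and -2.22. Without anterior cortex sham 11, 13 and 15, the cerebellum was lower than the anterior cortex by -2.04 for Pdgfra, -1.91 for Cspg4, -1.58 for Olig1, -1.39 for Olig2 and -2.06 for Gpr17, and all 5 were still called. Without them sham hippocampus against sham anterior cortex also kept its 5 calls, and Olig2 was called lower in sham amygdala than in sham anterior cortex (-0.64, adjusted p = 0.0437).

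Per kb of gene model, Olig1 had the highest level of the 5 in every region of sham brain and Cspg4 the lowest. Olig1 averaged 34.4 ± 3.3, 69.8 ± 13.3, 72.7 ± 3.6 and 89.1 ± 20.2 CPM per kb in sham cerebellum, hippocampus, amygdala and anterior cortex (SD, n = 5 each). Cspg4 averaged 1.64 ± 0.17, 3.72 ± 0.53, 7.01 ± 1.04 and 8.58 ± 2.67 CPM per kb in the same order. Pdgfra, Gpr17 and Olig2 lay between them, and their order turned with the region. In the cerebellum Olig2 (7.99 ± 0.53 CPM per kb) was above Pdgfra (4.56 ± 0.81 CPM per kb). In the amygdala Pdgfra (20.95 ± 2.38 CPM per kb) was above Olig2 (13.42 ± 1.055 CPM per kb) with no overlap. In the anterior cortex Pdgfra (21.5 ± 3.3 CPM per kb) was above Olig2 (17.4 ± 4.3 CPM per kb) with overlapping libraries. This order rested on the 3 libraries that stood apart, since in sham 14 and 33 Olig2 had 18.1 and 23.9 CPM per kb and Pdgfra 15.8 and 21.9 CPM per kb. The level of Gpr17 per kb rests on a gene model of 1020 bases, its whole span in the deposited tables, against a RefSeq span of 6922 bases. A span can hold introns, and how far this moves the level was not tested.

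For the cerebellum the same contrast stands in the median ratio of raw counts within a library, which no scaling between libraries can move. The median ratio of Olig2 to Pdgfra in sham libraries was 0.656 in cerebellum, 0.445 in hippocampus, 0.252 in amygdala and 0.300 in anterior cortex. Its sham range in the cerebellum, 0.598 to 0.894, overlapped that of the hippocampus, 0.303 to 0.601, and lay above those of the amygdala, 0.219 to 0.309, and the anterior cortex, 0.206 to 0.464. The ratio of Cspg4 to Pdgfra stayed near one level, with sham medians of 0.405 in cerebellum, 0.422 in hippocampus, 0.422 in amygdala and 0.473 in anterior cortex. The ratio of Olig1 to Olig2 had sham medians of 3.76, 4.63, 4.37 and 4.14 in the same order of regions. In blast libraries the median ratio of Olig2 to Pdgfra was 0.629 in cerebellum, 0.402 in hippocampus, 0.267 in amygdala and 0.473 in anterior cortex, each within the range of the sham libraries of its region but for the anterior cortex, where it was above the highest sham library. There the ratio was 0.121 in blast 8 and 0.206 to 0.300 in sham 11, 13 and 15, which stood apart. In the other 6 libraries it was 0.423 to 0.497 in blast and 0.444 and 0.464 in sham, which overlapped. These sham values lay within the sham range of the hippocampus. The lower sham median of the anterior cortex beside the hippocampus thus rested on sham 11, 13 and 15.

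**Figure D2:**
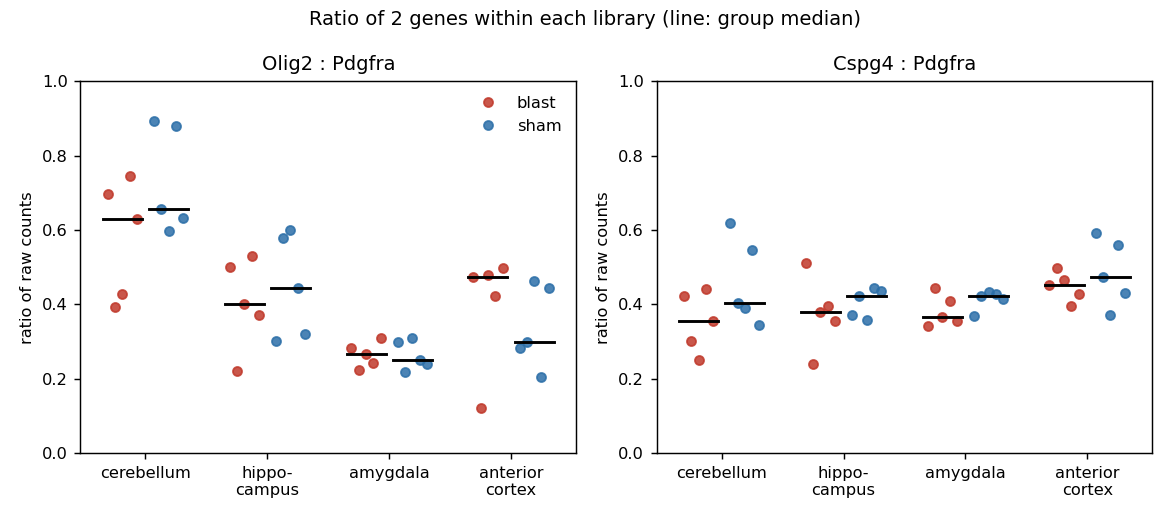
Ratio of raw counts of Olig2 to Pdgfra (left) and of Cspg4 to Pdgfra (right) in each of the 40 libraries, by region, blast left of sham, with a black line at the median of 5 libraries. The median of Olig2 to Pdgfra is highest in the cerebellum and lowest in the amygdala in both treatments, and Cspg4 to Pdgfra has sham medians of 0.405 to 0.473.

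Other genes of precursor cells were lower in the cerebellum too, with exceptions. Of 23 other precursor genes tested, 13 were called lower and 3 higher in sham cerebellum against sham hippocampus, 18 lower and 4 higher against sham amygdala, and 17 lower and 3 higher against sham anterior cortex. Cspg5, a brain proteoglycan, was lower by -1.75, -2.28 and -2.30 in these comparisons, and Sulf2, a sulfatase of the cell surface, by -2.16, -1.27 and -1.50. Megf11, a membrane protein with EGF-like repeats, went the other way at 2.40, 2.62 and 2.76. Among PDGF ligands and receptors other than Pdgfra, 4 of 6 were called lower in sham cerebellum in each comparison and 2, 0 and 1 higher, led by the ligand gene Pdgfc (-2.36, -3.71 and -3.43). Of 9 chondroitin sulfate proteoglycan genes 7, 8 and 8 were called lower, and 1 was called higher in each comparison. Ncan, Bcan, Cspg5, Ptprz1 and Vcan stand both in this list and among the 23 other precursor genes. Of 9 receptors related to Gpr17, 4, 5 and 6 were called lower and 1 higher in each comparison, with lower calls for P2ry13 and P2ry12, which microglia make as well. In the same 3 comparisons the microglial list had 8, 9 and 9 of 9 genes called lower. The astrocyte list had 4, 7 and 6 of 10 genes called lower and 3, 1 and 1 higher. In sham hippocampus 7 astrocyte genes were called lower and 0 higher against sham amygdala, and 8 lower and 1 higher against sham anterior cortex.

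Genes of the next steps of the lineage moved in both directions, and no test compared them with the precursor genes. Of 19 genes of committed precursors and new oligodendrocytes, 6 were called lower and 3 higher in sham cerebellum against sham hippocampus, with a median of -0.25. Against sham amygdala 8 were called lower and 5 higher, with a median of 0.05, and against sham anterior cortex 10 lower and 2 higher, with a median of -0.48. Of 18 mature myelin genes, 1 was called higher and 4 lower in sham cerebellum against sham hippocampus (median -0.21), 10 higher and 1 lower against sham amygdala (median 0.56), and 1 higher and 7 lower against sham anterior cortex (median -0.23). In sham hippocampus against sham amygdala 16 of the 18 myelin genes were called higher and none lower, in the pair in which Pdgfra, Gpr17 and Cspg4 were lower. Of 17 other transcription factors of the lineage, 5 were called higher and 5 lower in sham cerebellum against sham hippocampus, with Hes5 at -4.53 and Myt1 at 1.99. Against sham amygdala 6 were called higher and 5 lower, and against sham anterior cortex 2 higher and 6 lower. Without anterior cortex sham 11, 13 and 15, sham cerebellum against sham anterior cortex had 17 of the 23 other precursor genes, 11 of the 19 committed genes and 7 of the 18 myelin genes called lower, and 3, 3 and 0 higher. Lhfpl3 was not analysed here, and of its 4 measured relatives 2 were called higher and 2 lower in sham cerebellum against each other region.

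Cells other than precursors also make Pdgfra and Cspg4, and their markers differed between regions. Rgs5 and Pdgfrb, which define pericytes, averaged 37.9 and 20.9 CPM in sham cerebellum, 37.7 and 34.1 CPM in sham hippocampus, 60.0 and 57.9 CPM in sham amygdala and 82.3 and 62.2 CPM in sham anterior cortex. The 12 pericyte and smooth muscle genes, Cspg4 among them, summed to 177 to 207 CPM in sham cerebellum, 184 to 242 CPM in sham hippocampus, 303 to 490 CPM in sham amygdala and 357 to 561 CPM in sham anterior cortex. Dcn and Col1a1, which define fibroblasts, averaged 5.11 and 9.53 CPM in sham cerebellum, 10.4 and 8.44 CPM in sham hippocampus, 21.1 and 40.7 CPM in sham amygdala and 9.54 and 23.0 CPM in sham anterior cortex. The 13 fibroblast and meninges genes, Pdgfra among them, summed to 71.7 to 222 CPM, 120 to 698 CPM, 453 to 823 CPM and 318 to 426 CPM in the same order of regions. None of these 4 defining markers was at 0 in any library. The part of pericytes and fibroblasts in the regional levels was not tested.

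Blast and sham were then compared within each region. None of the 5 genes was called in any region, and none was apart, with every blast library above or below every sham library. The share of all genes called by edgeR was 0% in each region, in the order hippocampus, amygdala, anterior cortex and cerebellum, where 284 of 15059, 1326 of 15280, 644 of 14918 and 683 of 14769 genes had an unadjusted p under 0.05. The share of genes with the groups apart was 0.286%, 1.52%, 0.63% and 0.745%. DESeq2 called 1, 20, 0 and 5 genes, none of them a precursor gene. Over the 20 comparisons of a gene in a region the log2 fold changes ran from -0.46 to 0.24, and the 95% interval held 0 in 19 of them. The widest bounds were -0.95 and 0.69, so a change beyond these lay outside every interval.

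**Figure D3:**
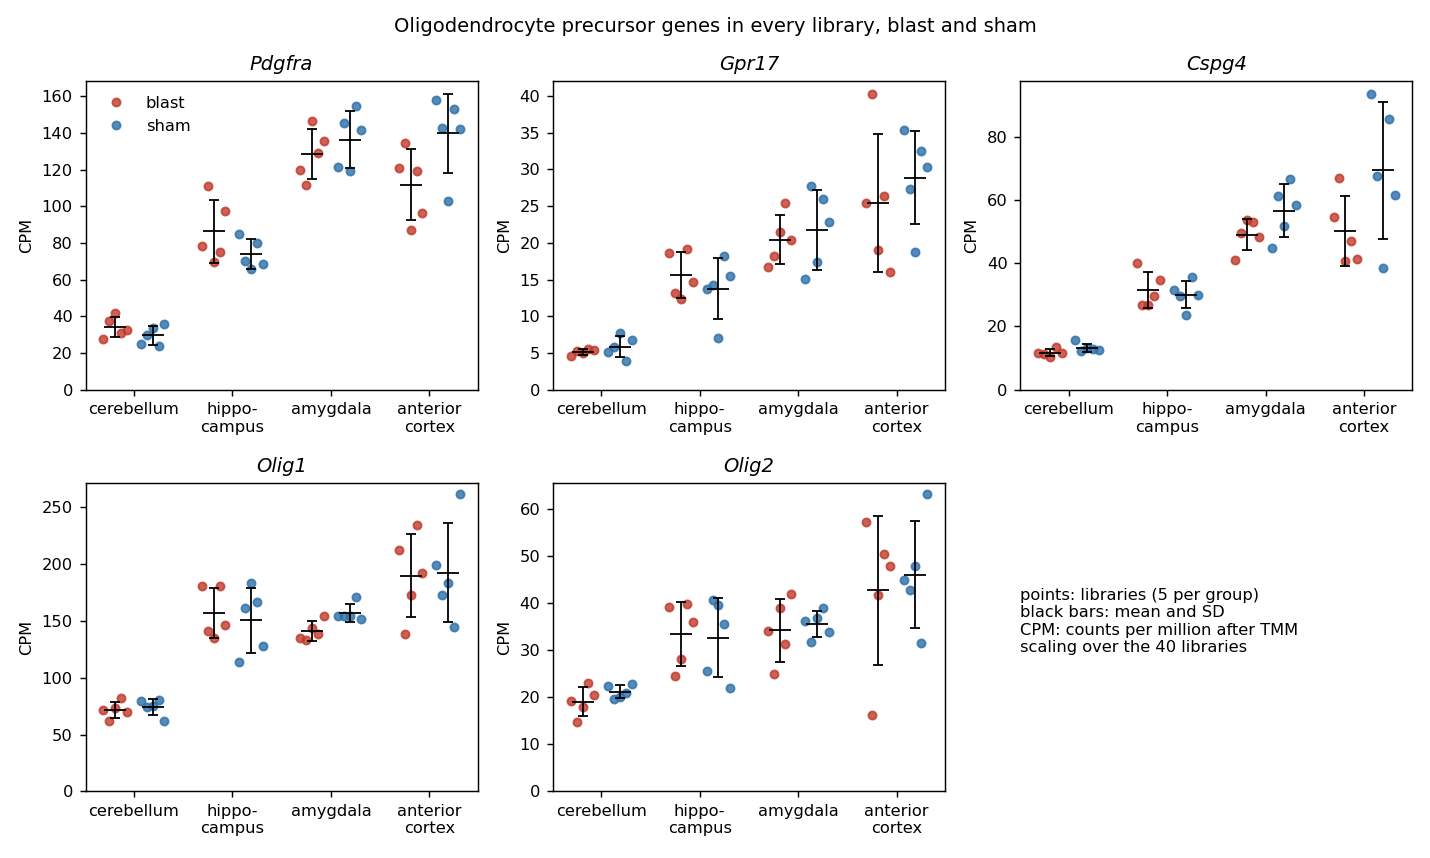
CPM of each gene in the 40 libraries by region, blast (red) left of sham (blue), with black bars at the mean and SD of 5 libraries. Blast and sham libraries overlap for every gene in every region, and the anterior cortex has the widest spread.

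Pdgfra was higher in blast than in sham libraries on average in the hippocampus and the cerebellum and lower in the amygdala and the anterior cortex, and no difference passed the test. In the hippocampus it had 78.2, 111, 69.9, 75.2 and 97.3 CPM in blast libraries Hip_4, Hip_8, Hip_22, Hip_88 and Hip_666, against 84.8, 70.3, 65.9, 80.1 and 68.4 CPM in sham libraries 11, 13, 14, 15 and 33. Hip_8 and Hip_666 were above every sham library and the other 3 blast libraries lay among them. Its log2 fold change there was 0.24 ± 0.14 (adjusted p = 0.998). In the cerebellum it had 27.7, 37.5, 41.8, 30.9 and 32.5 CPM in blast libraries, in the same order of numbers, against 23.8 to 36.1 CPM in sham libraries. Blast 8 and 22 were above all sham libraries, and the log2 fold change was 0.21 ± 0.13 (adjusted p = 0.999). In the amygdala the means were 128.6 ± 13.6 CPM in blast and 136.5 ± 15.5 CPM in sham libraries (SD, n = 5 each), with a log2 fold change of -0.09 ± 0.09. In the anterior cortex it had 121, 135, 87.3, 119 and 96.6 CPM in blast libraries AC_4, AC_8, AC_22, AC_88 and AC_666, against 158, 143, 103, 153 and 142 CPM in sham libraries 11, 13, 14, 15 and 33. All blast libraries were below sham 11, 13, 15 and 33, and sham 14 lay among them. This gave a log2 fold change of -0.32 ± 0.15 (adjusted p = 0.799).

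Markers of fibroblasts, which also make Pdgfra, were higher in blast than in sham libraries of the cerebellum, with none called. All 13 genes of the fibroblast and meninges list had a positive log2 fold change there, with a median of 0.81 and 7 at an unadjusted p under 0.05. Lum, a matrix proteoglycan, was at 0.91 ± 0.22 (adjusted p = 0.932), and Dcn averaged 9.04 CPM in blast and 5.11 CPM in sham cerebellum. The list summed to 161 to 379 CPM in blast and 71.7 to 222 CPM in sham cerebellum. The 13 include Pdgfra itself. In the hippocampus all 13 were positive too, with a median of 0.39, and the list summed to 142 to 991 CPM in blast and 120 to 698 CPM in sham libraries. In the amygdala, where Pdgfra was at -0.09, 11 of the 13 were positive (median 0.17), and in the anterior cortex, where it was at -0.32, 2 of the 13 (median -0.21). Choroid plexus genes were positive for 9 of 9 in the hippocampus and the cerebellum, 1 of 9 in the amygdala and 1 of 5 in the anterior cortex, with Ttr at 37.9 to 6514 CPM in blast and 8.55 to 4017 CPM in sham hippocampus. The part of these cells in the Pdgfra values was not tested. Leaving out libraries with much Ttr cannot test it, since Hip_8 and Hip_666 among them also had the most Pdgfra of the hippocampal libraries. Without Hip_8, Hip_666 and Hip_11, in which Ttr was at 6514, 5916 and 4017 CPM, the log2 fold change of Pdgfra in the hippocampus was 0.08 ± 0.11 (adjusted p = 1).

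Gpr17 was not called between the treatments in any region, with wide intervals. It had 15.6 ± 3.2 CPM in blast and 13.7 ± 4.1 CPM in sham hippocampus, 20.5 ± 3.3 CPM in blast and 21.8 ± 5.5 CPM in sham amygdala, 25.4 ± 9.3 CPM in blast and 28.9 ± 6.3 CPM in sham anterior cortex, and 5.17 ± 0.38 CPM in blast and 5.86 ± 1.45 CPM in sham cerebellum (SD, n = 5 each). The log2 fold changes were 0.20 ± 0.23, -0.09 ± 0.16, -0.18 ± 0.25 and -0.17 ± 0.17 in the same order. Their 95% intervals were -0.30 to 0.69, -0.44 to 0.25, -0.71 to 0.36 and -0.53 to 0.20. The lowest library outside the cerebellum was hippocampal sham 14 with 7.04 CPM, and anterior cortex blast 8 had 40.2 CPM, the highest of the 40 libraries.

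Cspg4 was lower on average in blast than in sham libraries in 3 of 4 regions. In the anterior cortex it had 54.6, 67.0, 40.6, 47.1 and 41.4 CPM in blast libraries AC_4, AC_8, AC_22, AC_88 and AC_666, against 93.4, 67.4, 38.5, 85.7 and 61.4 CPM in sham libraries 11, 13, 14, 15 and 33. Sham 11, 13 and 15 were above every blast library and sham 14 was below all of them. The log2 fold change was -0.46 ± 0.23, the farthest from 0 among the 20 comparisons (adjusted p = 0.799). In the amygdala it had 41.0, 49.5, 53.5, 52.9 and 48.3 CPM in blast libraries, against 44.9, 61.3, 51.8 and 66.5 CPM in sham libraries 11, 14, 15 and 33 and 58.5 CPM in the unnumbered one. Sham 14, 33 and the unnumbered one were above every blast library, and the log2 fold change was -0.21 ± 0.10 (adjusted p = 0.585). In the cerebellum the means were 11.7 ± 1.2 CPM in blast and 13.3 ± 1.4 CPM in sham libraries (SD, n = 5 each), with a log2 fold change of -0.16 ± 0.10. The hippocampus was at 0.08 ± 0.14.

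Olig1 had its smallest p in the amygdala. It had 134.6, 133, 144, 139 and 154.5 CPM in blast libraries Amy_4, Amy_8, Amy_22, Amy_88 and Amy_666, against 154.0, 154.1, 154.4 and 171 CPM in sham libraries 11, 14, 15 and 33 and 152 CPM in the unnumbered one. Amy_666 lay within the sham range and the other 4 blast libraries were below every sham library. The log2 fold change was -0.16 ± 0.06, with an unadjusted p of 0.0158 that ranked 469 of 15280 genes (adjusted p = 0.508). In the authors' deposited table the log2 fold change of Olig1 in the amygdala was -0.143 with an adjusted p of 0.140. Only 2096 genes had an adjusted p there, against 15280 here, so the 2 adjusted p-values cover unlike sets of genes. In the other regions the log2 fold change was 0.07 ± 0.13 in the hippocampus, -0.02 ± 0.17 in the anterior cortex and -0.04 ± 0.08 in the cerebellum.

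Olig2 varied more between libraries than Olig1 in the anterior cortex. There it had 57.3, 16.3, 41.7, 50.5 and 48.0 CPM in blast libraries AC_4, AC_8, AC_22, AC_88 and AC_666, against 44.9, 42.8, 47.9, 31.6 and 63.2 CPM in sham libraries 11, 13, 14, 15 and 33. Blast 8 stood far below the other 9 libraries. The log2 fold change was -0.11 ± 0.27 (adjusted p = 0.921), against 0.05 ± 0.19 for hippocampal, -0.05 ± 0.12 for amygdala and -0.14 ± 0.10 for cerebellar libraries.

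**Figure D4:**
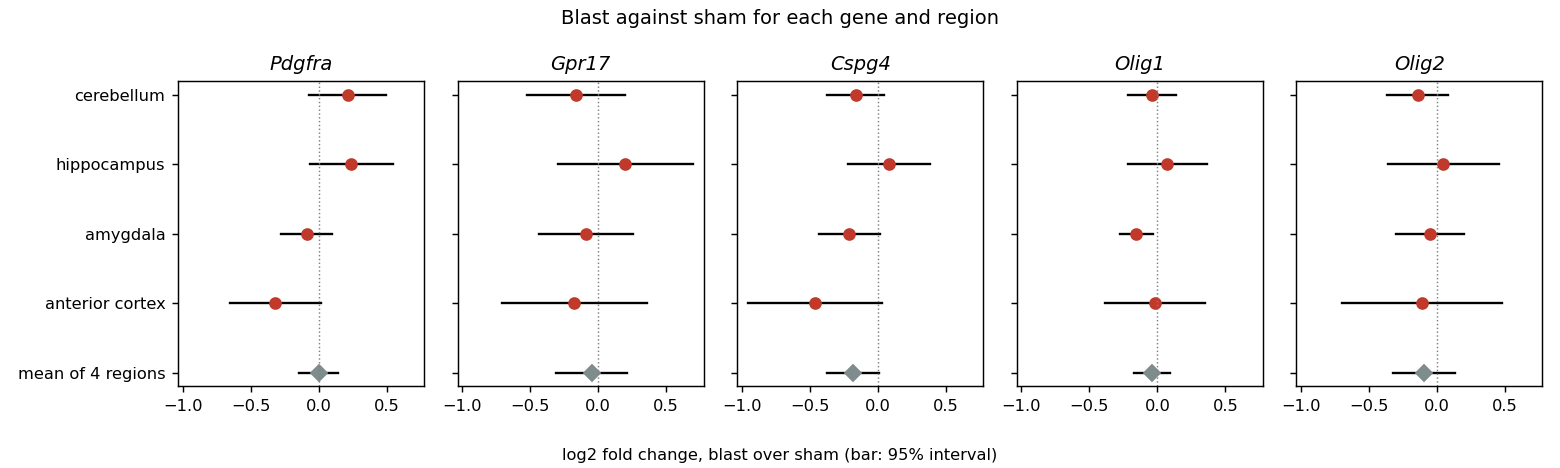
Log2 fold change of blast over sham for each gene in each region (red points) and as a mean of the 4 regions (grey diamonds), with 95% intervals as bars. The interval of Olig1 in the amygdala is the only regional one that does not reach 0.

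The 4 anterior cortex libraries that stood apart were 1 of blast and 3 of sham, and the 5 genes split between them and the other 6. Pdgfra averaged 147 CPM in the 4 and 112 CPM in the other 6, Cspg4 78.4 and 47.3 CPM, and Gpr17 33.9 and 22.7 CPM. Olig1 went the other way, with 164 CPM in the 4 and 209.5 CPM in the other 6, as did Olig2 with 33.9 and 51.4 CPM. Within the other 6 libraries Cspg4 averaged 45.9 CPM in 4 blast and 49.96 CPM in 2 sham libraries, with a log2 fold change of -0.12 ± 0.19. Among them Pdgfra was at -0.21 ± 0.17, Olig1 at -0.13 ± 0.16, Olig2 at -0.17 ± 0.15 and Gpr17 at -0.17 ± 0.24. Among the 4 that stood apart blast 8 was the lone blast library, with 135 CPM of Pdgfra, 67.0 CPM of Cspg4 and 16.3 CPM of Olig2, against means of 151, 82.2 and 39.8 CPM in the 3 sham libraries. With the sets as a term of the model, chosen after seeing the data, Pdgfra was at -0.18 ± 0.12, Cspg4 at -0.17 ± 0.15, Olig1 at -0.18 ± 0.14, Olig2 at -0.51 ± 0.20 and Gpr17 at 0.03 ± 0.19, and none was called.

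**Figure D5:**
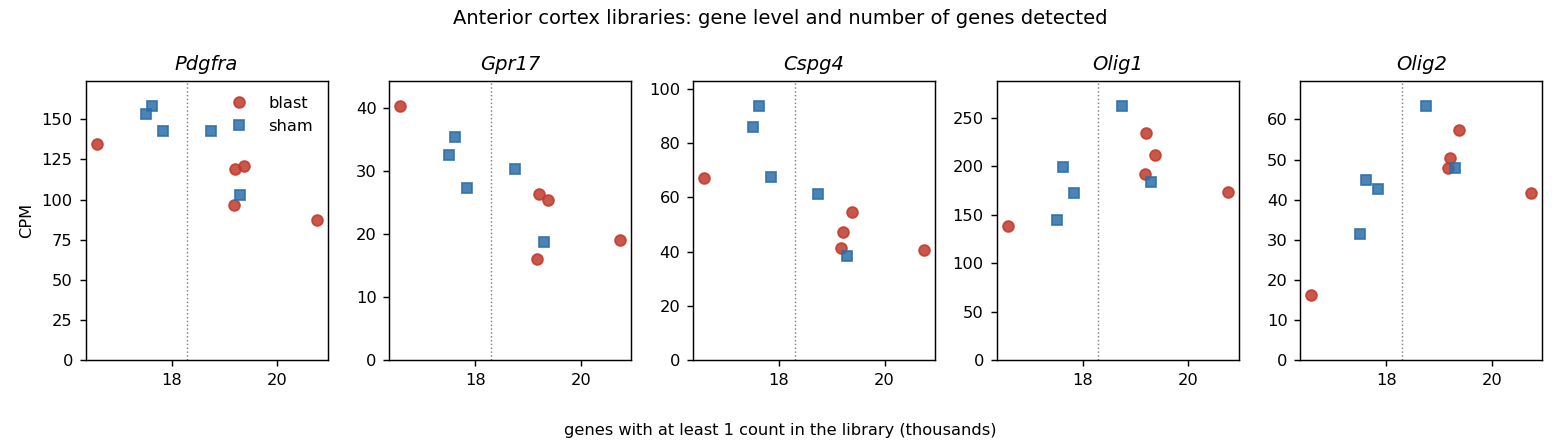
CPM of each gene in the 10 anterior cortex libraries against the number of genes with at least 1 count in the library, blast as red circles and sham as blue squares. Left of the dotted line stand the 4 libraries with 16577 to 17845 genes detected, in which Pdgfra, Gpr17 and Cspg4 are high and Olig1 and Olig2 low on average.

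Whether blast acted on a gene differently from region to region was tested as an interaction over all 40 libraries. It was called for 0% of 16378 genes by edgeR, with 779 at an unadjusted p under 0.05 and 0 called by limma voom. Pdgfra, positive in 2 regions and negative in 2, had an unadjusted p of 0.0209 and an adjusted p of 1, and the other 4 genes had an adjusted p of 1 as well. Averaged over the 4 regions, the effect of blast was called for 0.00611% of 16378 genes, which is 1 gene and no precursor gene. It was -0.00048 ± 0.071 for Pdgfra, -0.05 ± 0.13 for Gpr17, -0.18 ± 0.09 for Cspg4, -0.04 ± 0.07 for Olig1 and -0.10 ± 0.11 for Olig2 (limma voom, adjusted p of 0.61 for Cspg4 and above for the rest). Without the 4 anterior cortex libraries that stood apart, the Cspg4 mean was -0.10 ± 0.07.

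Other genes of the precursor stage were not called either. Of the 23 tested, 14 had a positive and 9 a negative log2 fold change in the hippocampus (median 0.04), 4 and 19 in the amygdala (median -0.08), 3 and 20 in the anterior cortex (median -0.25) and 6 and 17 in the cerebellum (median -0.05), beside medians between -0.0039 and 0.0022 over all genes. At an unadjusted p under 0.05 were 1, 3, 1 and 2 of the 23, beside 1.89%, 8.68%, 4.32% and 4.62% of all genes. In the amygdala these were Megf11 (0.22), Ncan (-0.21) and Sox5 (-0.22), and in the anterior cortex Bcan, a brain proteoglycan, at -0.36 ± 0.14 (adjusted p = 0.799). Of the 19 committed and new oligodendrocyte genes 15, 6, 6 and 6 were positive in the hippocampus, amygdala, anterior cortex and cerebellum, and of 18 mature myelin genes 15, 4, 12 and 3, with none called. Without the 4 anterior cortex libraries that stood apart, 9 of the 23 other precursor genes (median -0.11), 6 of the 19 committed genes and 3 of the 18 myelin genes were positive there. In the amygdala Mobp, a myelin structural protein, was at -0.28 ± 0.07 (adjusted p = 0.459). Of 6 PDGF ligands and receptors tested in the anterior cortex, where Pdgfra was at -0.32, 4 were positive, and 2 without the 4 libraries that stood apart. Of 8 proliferation genes tested in the hippocampus 3 were positive and 5 negative, with a median of -0.10. Of these, Mki67 and Top2a, which mark dividing cells, averaged 13.9 and 1.298 CPM in blast hippocampus, against 11.6 and 0.748 CPM in sham hippocampus, while Ccnb1 was at -0.47 ± 0.29 and Ccna2 at -0.60 ± 0.37. In the anterior cortex Top2a averaged 1.51 CPM in blast and 2.77 CPM in sham libraries. In the cerebellum 3 of 6 proliferation genes tested were positive and 3 negative, with Aurkb at 1.18 ± 0.21 (edgeR, unadjusted p = 7.64e-05, adjusted p = 0.564). No proliferation gene was called by edgeR in any region. The proliferation genes were not looked up among the DESeq2 calls.

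The genes whose levels most resembled each of the 5 over the 40 libraries were found by the root mean square difference of log2 CPM centred on the gene mean, among 14714 genes. Pdgfra was nearest to Ntrk2, a neurotrophin receptor, with a difference of 0.22, and Cspg4 to Lrp4, a receptor of the LDL receptor family, with 0.18. Gpr17 was nearest to Lrp4 as well (0.22), and next to Cspg4 (0.25). Olig1 was nearest to Eml2, a microtubule-associated protein (0.17), and Olig2 to Snapc2, a subunit of a small nuclear RNA transcription complex (0.23), with Olig1 next (0.26). Between members the difference was 0.28 for Pdgfra and Cspg4 and 0.70 for Olig2 and Gpr17. The median over all genes ran from 0.67 for Olig2 to 1.03 for Gpr17. These are descriptions over libraries that share regions and scaling.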

How the data were processed

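Per the labels, total RNA was extracted with Qiazol, purified on RNeasy columns and made into libraries with a NEBNext Ultra kit. The submitters' processing notes name CASAVA. The sources used here give no aligner, counter, annotation or genome build. The deposited tables hold, per the file headers, a raw count per gene, the authors' normalized signal (the count divided by 1 factor per library), log2 fold changes and p-values, and gene length. All values here came from the counts, except those named as the authors' deposited table.

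Groups came from the tissue and treatment labels, and genes were joined by identifier. Within each region, edgeR 4.0.16 (R 4.3.3) was run with filterByExpr, TMM and two-sided quasi-likelihood F tests, with Benjamini-Hochberg adjustment over all genes tested. Sham regions were compared in 1 edgeR model of 20 sham libraries. The interaction used an edgeR model of 8 groups, and the mean effect limma 3.58.1 voom with the title number as a random block. Intervals are 95%. The scripts were tested on simulated data. Likeness used genes with a mean of at least 1 CPM and a prior count of 2. Alternatives were DESeq2 1.42.0, voom, RLE size factors, no filter, other sets of libraries and leaving out each library.

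The genes and lists were chosen with earlier results of these data known. Named genes are the listed ones, of each other list up to 3 with the smallest p, defining markers, and for each gene the 3 nearest by likeness. Library totals ran from 11268097 to 37128383 counts, which bound counting error only. Of the per-sample columns, 41 were not used, which were 40 of FPKM and 1 of signal.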

Additional observations from a re-analysis of the deposited data

Results flagged for a closer look

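Each of the 5 genes was examined in its 8 groups of 5 libraries for a library whose gap to its nearest neighbour took most of the range of the group (Dixon's 95% criterion). Of 40 groups examined 3 were flagged, where chance flags about 1 in 20. Pdgfra in anterior cortex sham 14 was at 103 CPM, against 142 to 158 CPM in the other 4 sham libraries. Cspg4 in cerebellar sham 11 was at 15.6 CPM, against 12.2 to 13.1 CPM in the others. Olig1 in amygdala sham 33 was at 171 CPM, against 152 to 154 CPM in the others.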

How the results depend on the processing

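No precursor gene was called for blast under any alternative run, and of 160 values under settings other than leaving out a library 4 changed sign, namely Gpr17 in the anterior cortex (0.34 within the 4 libraries that stood apart and 0.034 with the sets as a term) and the mean effect of Pdgfra (0.0080 with no filter and 0.030 without those 4). Counts over all genes moved. DESeq2 called 1 hippocampal, 20 amygdala and 5 cerebellar genes, against 0 by edgeR. Without a filter the amygdala had 2 and the mean effect 2, and 1 model of 8 groups gave 34 in the anterior cortex, where leaving out the 4 libraries gave 2 and using only them 4, with the lone blast library among them assumed to vary like the sham ones. The mean effect had 0 without them. The cause of these moves was not tested.

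Leaving out 1 library gave 0 to 1 hippocampal genes, 0 to 2 amygdala genes, 0 to 1 cerebellar genes and 0 to 38 for the mean effect, the highest without anterior cortex sham 14. In the hippocampus it moved Cspg4 between -0.0076 and 0.15 and Olig2 between -0.062 and 0.14. In the amygdala it moved Olig2 between -0.14 and 0.043 and Gpr17 between -0.20 and 0.0093. In the anterior cortex it moved Olig1 between -0.10 and 0.13 and Olig2 between -0.22 and 0.094, and in the cerebellum Olig1 between -0.095 and 0.0096. The mean effect of Pdgfra lay between -0.021 and 0.029.

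Among sham regions the calls of the cerebellum held under every alternative run. Sham hippocampus against sham anterior cortex had 3 precursor genes and 4353 genes in all when only these groups were fitted, 3 to 5 precursor genes without 1 library, and 4053 genes without anterior cortex sham 11, 13 and 15. Without these 3, sham amygdala against sham anterior cortex had 1 precursor gene and 1088 genes, with Pdgfra at 0.16 and Cspg4 at 0.19. Without 1 library it had 0 to 1 precursor genes, and Pdgfra lay between -0.11 and 0.026. Olig1 in sham hippocampus against sham amygdala lay between -0.14 and 0.012. In that pair Gpr17 was lost with RLE size factors, no filter or only these groups (adjusted p of 0.0514, 0.0586 and 0.0707).

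Title numbers were used as a random block in the mean effect and in no other main model. The deviations of same-numbered libraries correlated at -0.151 to 0.439 over 57 pairs (median 0.0708), with 19 over 0.1. Libraries of different numbers were not correlated for comparison, so these values cannot settle whether the numbers pair the libraries. With the number as a replicate block, sham amygdala against sham anterior cortex had 2243 genes in place of 3415, Gpr17 in sham hippocampus against sham amygdala an adjusted p of 0.128 and Olig1 in sham hippocampus against sham anterior cortex one of 0.0818. The mean effect had 2 genes with no replicate block.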
